A study of Mus musculus with 4 samples.

Results

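The genes described here make cholesterol and fatty acids and are known targets or controllers of the sterol regulatory element-binding proteins (SREBPs). They were chosen by symbol from pathway membership, with earlier results of these data known, and every probe named for them was taken. The shares of members given below therefore describe the list and do not test it. The list holds 32 genes of 27670 gene names on the array. It comprises 18 enzymes of the sterol branch, 8 enzymes of the fatty acid branch and 6 regulators or sterol carriers, and 62 probes represent them. The array's older name Sc4mol, now Msmo1, is used below.

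The samples were the sub-lines 4T1-S and 4T1-A of 4T1, a mouse mammary carcinoma line. Total RNA of each was hybridised to 2 one-colour expression arrays, and the series title describes 4T1-S as highly immunogenic. The labels name no treatment and do not say how either sub-line was derived or whether it is a single clone. Whether replicate arrays stand for separate cultures is not stated either, so the p-values reflect array-to-array spread that may be technical. Both sub-lines were on the same slide, 4T1-S at positions 3 and 4 and 4T1-A at positions 1 and 2, so slide position and sub-line cannot be told apart.

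Levels are given as relative intensity, the processed spot intensity over the 75th percentile of its array, which was 405 and 498 in 4T1-S and 467.5 and 577 in 4T1-A. Between 54.9% and 59.2% of spots were well above background on an array. All 8 epithelial carcinoma markers were above background on every array, with a summed relative intensity of 310 and 254 in 4T1-S and 339 and 352 in 4T1-A. Of these, Cdh1, Cldn7, Epcam and Krt19 fell in 4T1-S, while Krt8, Krt18, Krt7 and Esrp1 did not pass the test. Summed markers of leukocytes were 1.14 and 1.20 in 4T1-S and 1.13 and 1.17 in 4T1-A. Those of fibroblasts were 1.47 and 1.42 in 4T1-S and 0.742 and 0.970 in 4T1-A, those of endothelium 0.329 and 0.248 in 4T1-S and 0.160 and 0.176 in 4T1-A, and those of adipocytes 0.410 and 0.435 in 4T1-S and 0.369 and 0.391 in 4T1-A. The never-detected markers numbered 3 of 11 for leukocytes, 3 of 9 for fibroblasts, 4 of 6 for endothelium and 4 of 8 for adipocytes. The leukocyte marker Cd4 and the fibroblast marker Col1a1, neither detected in 4T1-A, were called higher in 4T1-S, Col1a1 by at least 2.59-fold. Cd4 was dim, at 0.0831 and 0.120 in 4T1-S. Of 7 tested leukocyte markers 5 were measured higher in 4T1-S and 2 lower. Among the lower was the brighter Cd68, with 0.387 and 0.313 in 4T1-S and 0.533 and 0.605 in 4T1-A, which did not pass the test. The part of the fibroblast and endothelial markers in the results below was not tested. In bulk RNA, fewer cells expressing a gene and less RNA per cell cannot be told apart.

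SREBPs are made as precursors held in the endoplasmic reticulum. The escort protein SCAP carries them to the Golgi when membrane sterol is low, and there proteases release the part that enters the nucleus. INSIG proteins retain SCAP when sterol is plentiful. SREBP-2, the product of Srebf2, is known mainly for sterol synthesis genes, and SREBP-1, the product of Srebf1, mainly for fatty acid synthesis genes. Many tumour cells make their own fatty acids and sterols for new membrane.

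The fitted change was toward less transcript in 4T1-S for 28 of the 32 members, and 3 of them passed the test. Idi1 and Hmgcs1, both enzymes between acetyl-CoA and squalene, fell, and so did Scd1, which makes monounsaturated fatty acids. No member rose. The test was limma's moderated fit across all genes with Benjamini-Hochberg adjustment and a threshold of 0.05. The called members were 9.38% of the list, and 3.01% of the 16173 genes tested were called lower in 4T1-S, with 3.95% called higher. The median difference (4T1-S minus 4T1-A, log2) was -0.48 over the members and 0.13 over all genes tested, of which 37.1% were measured lower in 4T1-S.

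All usable arrays of 4T1-S lay below all those of 4T1-A for 22 members, and above them for 3. The 22 include Fdps, which had only 1 usable array of 4T1-A. Over all genes tested these shares were 18.5% below and 40.6% above. At an unadjusted p under 0.05, 14 members were lower and 0 were higher, where 8.2% of all genes tested were lower and 20.5% higher. The scaling set the balance of calls over all genes, 487 lower and 639 higher here against 887 lower and 189 higher with scaling to the array median. With that scaling the median difference of all genes was -0.16 and that of the sterol branch was -0.77.

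**Figure D1:**
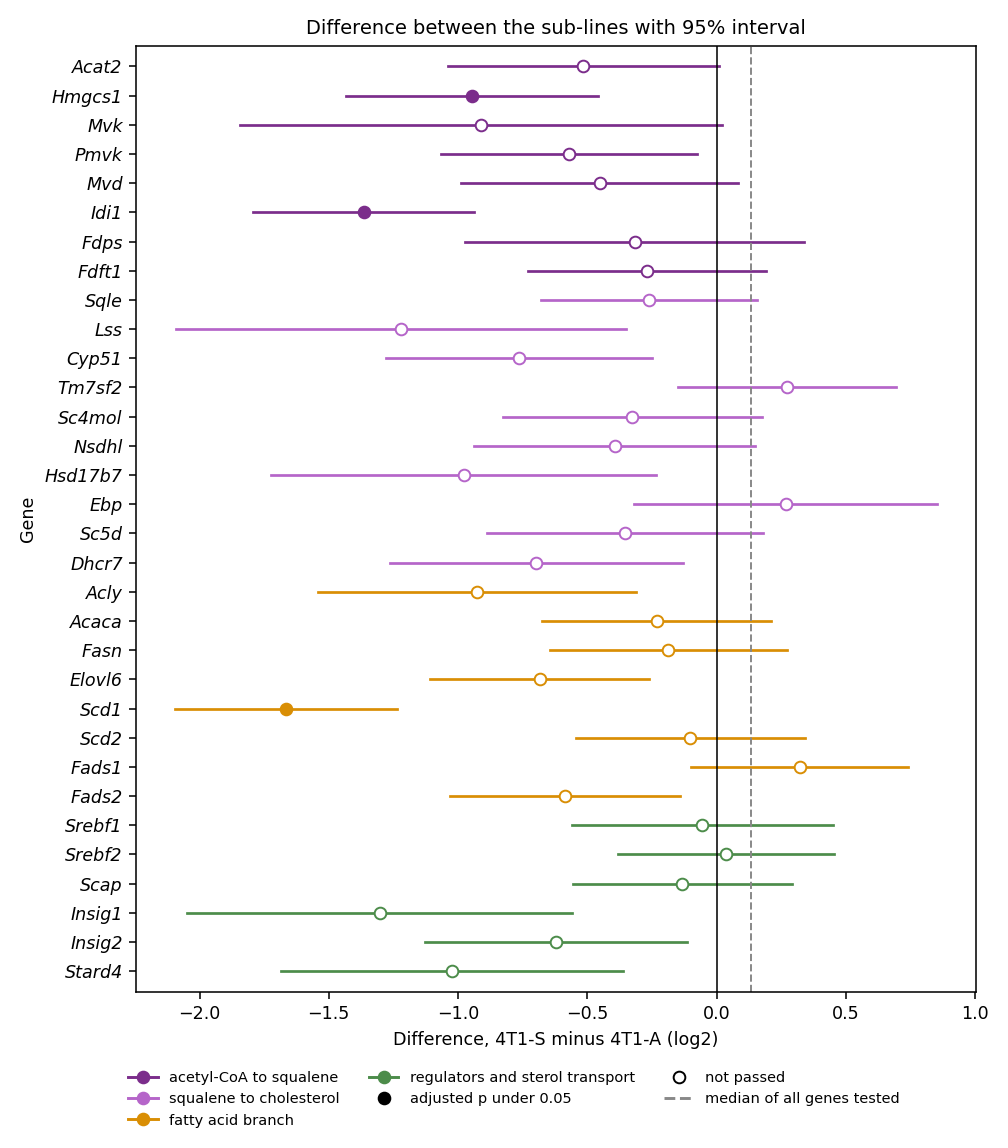
Difference between 4T1-S and 4T1-A for each member, as log2 of 4T1-S minus 4T1-A on the horizontal axis, with the 95% interval of the limma fit. Filled points passed an adjusted p of 0.05 (Hmgcs1, Idi1 and Scd1), colours mark the branches, and the dashed line is the median of all genes tested, 0.13; 28 of the 32 points lie left of 0.

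The promoters of the 2 called sterol enzymes, of Acly, the fatty acid enzyme next in difference to Scd1, and of Insig1, a regulator, are shown because these genes had some of the lowest differences of their groups. Sequences are from RefSeq (GRCm38.p6), 250 bases before to 50 after the annotated start, and 25 of the 32 members matched an entry. Capitals mark matches, on either strand, to letters known from such promoters. These are the sterol regulatory element core TCACNCCAC, the CCAAT box (CCAAT, or ATTGG on the other strand), the GC box (GGGCGG or CCGCCC) and the E-box CACGTG. None of the matches in these windows overlap. Idi1 lies at chr13:8885356-8885655 on the plus strand, Hmgcs1 at chr13:119690101-119690400 on the plus strand, Acly at chr11:100527951-100528250 on the minus strand and Insig1 at chr5:28071162-28071461 on the plus strand.
Idi1: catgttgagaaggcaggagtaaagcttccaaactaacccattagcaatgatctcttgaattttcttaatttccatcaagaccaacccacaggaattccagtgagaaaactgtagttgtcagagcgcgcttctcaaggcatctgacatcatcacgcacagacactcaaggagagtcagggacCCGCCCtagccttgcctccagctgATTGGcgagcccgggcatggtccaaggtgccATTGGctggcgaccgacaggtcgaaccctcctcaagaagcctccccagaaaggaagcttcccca
Hmgcs1: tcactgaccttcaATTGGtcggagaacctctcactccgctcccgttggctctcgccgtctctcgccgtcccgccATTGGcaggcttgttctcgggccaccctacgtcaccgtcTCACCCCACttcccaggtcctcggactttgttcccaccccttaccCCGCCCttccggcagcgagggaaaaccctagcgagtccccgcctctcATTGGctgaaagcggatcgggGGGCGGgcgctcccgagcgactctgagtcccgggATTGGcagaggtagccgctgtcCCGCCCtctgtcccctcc
Acly: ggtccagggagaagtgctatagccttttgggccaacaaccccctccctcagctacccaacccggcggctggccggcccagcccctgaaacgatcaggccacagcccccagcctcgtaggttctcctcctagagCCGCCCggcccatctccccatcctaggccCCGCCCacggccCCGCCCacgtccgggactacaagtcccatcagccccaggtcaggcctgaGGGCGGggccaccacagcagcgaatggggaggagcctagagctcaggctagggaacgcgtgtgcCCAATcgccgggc
Insig1: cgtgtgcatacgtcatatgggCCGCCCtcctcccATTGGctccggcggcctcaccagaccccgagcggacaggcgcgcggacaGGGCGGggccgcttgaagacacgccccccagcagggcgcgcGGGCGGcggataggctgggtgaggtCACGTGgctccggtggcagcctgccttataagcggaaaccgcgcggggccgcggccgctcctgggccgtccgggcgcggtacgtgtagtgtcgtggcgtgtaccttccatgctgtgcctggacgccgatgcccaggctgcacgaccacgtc
The sterol element core was matched in Hmgcs1 only, starting 137 bases before the start, and in 1.24% of all 32851 promoter windows. The CCAAT box was found in 14 of 15 matched sterol branch genes, 2 of 5 fatty acid genes and 4 of 5 regulators, and in 37.4% of all windows. The GC box was found in 14 of 15, 2 of 5 and 5 of 5 of the same groups and in 35.7% of all windows. The E-box was found in 3 of 15 sterol branch genes, 0 of 5 fatty acid genes and 2 of 5 regulators, and in 7.15% of all windows. A member counted if any of its windows held a match, while the shares above are of single windows. Counted by gene, 41.1% of all genes held a CCAAT box, 38.2% a GC box and 8.09% an E-box. The sterol element core was in 1.44% of all genes. Among the genes tested on the arrays that had an entry, 42.8% held a CCAAT box, 65.1% a GC box and 11.2% an E-box. The core was in 1.35% of them. A match describes the letters in the window and does not show binding.

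The enzymes from acetyl-CoA to squalene build isoprenoid units and join them. All 8 were measured lower in 4T1-S, with a median difference of -0.54, and 2 of the 8 fell. Idi1, the isomerase that balances the isoprenoid building blocks, had a relative intensity of 6.06 and 6.17 in 4T1-S against 16.6 and 15.0 in 4T1-A. The groups were well apart and the replicates close, and Idi1 fell 2.57-fold (log2 difference -1.36 ± 0.18, SE, n = 2 arrays per sub-line, limma adjusted p = 0.00527). Hmgcs1, the synthase that forms the precursor of mevalonate, had 20.7 and 15.4 in 4T1-S and 34.4 in each 4T1-A array. It fell 1.93-fold (-0.95 ± 0.21, adjusted p = 0.0395).

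Further probes showed the same sign with less precision. The dimmer Idi1 probe differed by -1.02 ± 0.32, and the other Hmgcs1 probes by -1.03 ± 0.32 and -0.79 ± 0.23, none of them past the threshold over all probes. The brightest Hmgcs1 probe also missed it in that larger family of tests (adjusted p = 0.0548). Idi1 missed the threshold without 4T1-S replicate 1 (adjusted p = 0.0571) and without 4T1-S replicate 2 (0.0630). Hmgcs1 missed it without 4T1-S replicate 1 (0.0783), 4T1-S replicate 2 (0.188) or 4T1-A replicate 1 (0.0533), with quantile normalization (0.0511), with the mean of its probes (0.0521) and with no filter on background (0.119).

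The other 6 enzymes of this segment did not pass. Acat2, the thiolase that joins acetyl-CoA units, had 0.251 and 0.203 in 4T1-S and 0.376 and 0.277 in 4T1-A (-0.52 ± 0.23, adjusted p = 0.181). The kinase Mvk, which starts the phosphorylation of mevalonate, had 2.26 and 0.916 in 4T1-S and 3.25 and 2.26 in 4T1-A (-0.91 ± 0.40, adjusted p = 0.182). Its arrays overlapped, and its 4T1-S replicates lay further apart than those of any other enzyme in this segment. Pmvk, the next kinase, had 9.99 and 7.95 in 4T1-S and 14.7 and 11.9 in 4T1-A. Mvd, which decarboxylates the product to isopentenyl diphosphate, had 4.16 and 2.88 in 4T1-S and 5.07 and 4.42 in 4T1-A. Pmvk and Mvd differed by -0.57 ± 0.21 and -0.45 ± 0.23 (adjusted p = 0.130 and 0.237), both without overlap.

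The last enzymes of the segment make farnesyl diphosphate and squalene. Fdps, farnesyl diphosphate synthase, had 19.8 and 14.8 in 4T1-S and 21.3 on 1 array of 4T1-A. Its spot on 4T1-A replicate 1 carried an outlier flag and was left out, so its difference of -0.32 ± 0.28 rests on 3 arrays (adjusted p = 0.491). Fdft1, squalene synthase, had 15.8 and 13.1 in 4T1-S and 18.5 and 16.3 in 4T1-A (-0.27 ± 0.20, adjusted p = 0.405).

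**Figure D2:**
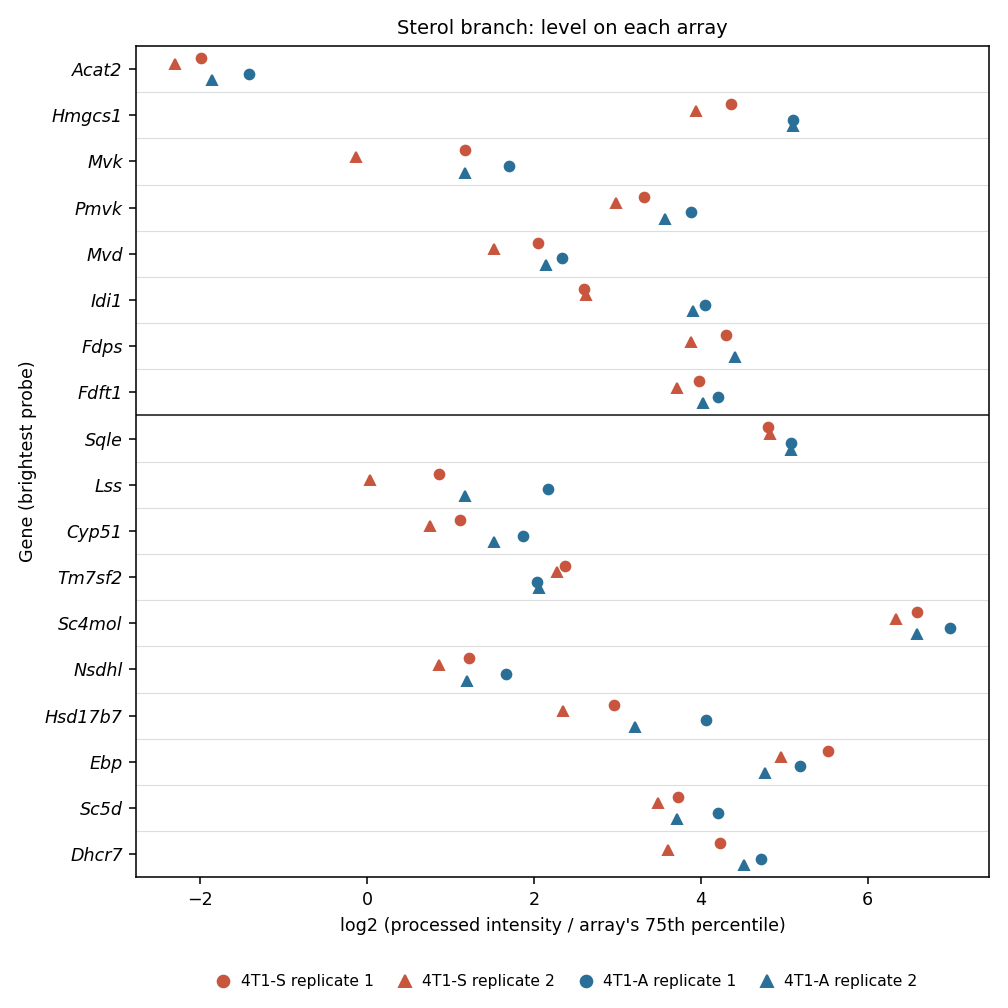
Relative intensity of each sterol branch enzyme on each array, as log2 of the processed intensity over the array's 75th percentile, with circles for replicate 1 and triangles for replicate 2 of 4T1-S (red) and 4T1-A (blue). The levels of different genes come from different probes and are not to be compared. All usable 4T1-S arrays lie below those of 4T1-A for 13 of the 18 enzymes, Idi1 and Hmgcs1 among them. They lie above for 1, Tm7sf2. Over all genes tested these shares were 18.5% and 40.6%. For most enzymes the replicate 2 symbol lies left of replicate 1.

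The segment from squalene to cholesterol closes the sterol rings and then trims and reduces them. Of its 10 enzymes, 0 passed the test in either direction, 4 were lower at an unadjusted p under 0.05 (8.2% of all genes), and 8 were measured lower in 4T1-S, with a median difference of -0.37. Lss, lanosterol synthase, which closes the rings, had 1.83 and 1.03 in 4T1-S and 4.51 and 2.27 in 4T1-A (-1.22 ± 0.38, adjusted p = 0.0884). The sub-lines did not overlap for Lss, and the replicates within each sub-line were far apart. Its other probes differed by -1.34 ± 0.42 and -0.59 ± 0.20. Hsd17b7, a ketosterol reductase, had 7.79 and 5.12 in 4T1-S and 16.7 and 9.26 in 4T1-A (-0.98 ± 0.32, adjusted p = 0.101).

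Cyp51, the demethylase that acts on lanosterol, had 2.17 and 1.68 in 4T1-S and 3.66 and 2.87 in 4T1-A (-0.76 ± 0.22, adjusted p = 0.0768). Dhcr7, which reduces the last precursor to cholesterol, had 18.8 and 12.2 in 4T1-S and 26.3 and 22.9 in 4T1-A (-0.70 ± 0.24, adjusted p = 0.115). The sub-lines did not overlap on these probes, and both genes passed with scaling to the array median (adjusted p = 0.0295 and 0.0473). The other Cyp51 probes differed by -0.30 ± 0.22 and -0.31 ± 0.33 and overlapped, and the mean of its probes gave -0.46. The second probe of Dhcr7 differed by -0.40 ± 0.19. The differences of Mvk, Lss, Cyp51 and Hsd17b7 were -1.17, -1.72, -0.94 and -1.40 without 4T1-A replicate 2. They were -0.65, -0.72, -0.59 and -0.55 without 4T1-A replicate 1. In the same order, they were -1.56, -1.63, -0.95 and -1.28 without 4T1-S replicate 1. Without 4T1-S replicate 2 they were -0.26, -0.81, -0.58 and -0.67, so their size depended on which array of either sub-line was used.

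Smaller values were measured for the other enzymes of the segment. Sqle, squalene epoxidase, had 27.9 and 28.4 in 4T1-S and 33.8 in each 4T1-A array (-0.26 ± 0.18, adjusted p = 0.372). Its replicates were nearly equal, and its 95% interval ran from -0.68 to 0.16. Sc4mol, a methylsterol oxidase, had 96.7 and 81.2 in 4T1-S and 127 and 96.9 in 4T1-A (-0.33 ± 0.22, adjusted p = 0.357). Nsdhl, a sterol dehydrogenase, had 2.33 and 1.82 in 4T1-S and 3.19 and 2.30 in 4T1-A, and Sc5d, a sterol desaturase, had 13.3 and 11.2 in 4T1-S and 18.5 and 13.1 in 4T1-A. The arrays of both genes overlapped between the sub-lines, with adjusted p = 0.304 and 0.345. The other tested Nsdhl probes differed by -0.13 ± 0.24 and -0.18 ± 0.34, and the second Sc5d probe by 0.05 ± 0.21, the opposite sign.

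On the brightest probe of each gene, the differences of 2 enzymes were positive. Tm7sf2, a sterol reductase, had 5.16 and 4.83 in 4T1-S and 4.11 and 4.16 in 4T1-A (0.27 ± 0.18, adjusted p = 0.360). Ebp, a sterol isomerase, had 46.0 and 31.3 in 4T1-S and 36.4 and 27.3 in 4T1-A (0.27 ± 0.25, adjusted p = 0.523). Both signs turned with scaling to the array median, to -0.02 for each, and that of Ebp also turned without 4T1-S replicate 1, to -0.01.

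The fatty acid branch turns citrate into acetyl-CoA, builds palmitate, and then lengthens and desaturates the chain. Of its 8 enzymes 1 fell, 7 did not pass, and 7 were measured lower in 4T1-S, with a median difference of -0.41. Scd1, a stearoyl-CoA desaturase, had a relative intensity of 0.831 and 0.818 in 4T1-S and 2.46 and 2.78 in 4T1-A. The replicates were close and the sub-lines far apart. Scd1 fell 3.17-fold (-1.67 ± 0.19, n = 2 arrays per sub-line, adjusted p = 0.00196), with a 95% interval from -2.10 to -1.23. It was called under all 16 alternative settings run, with differences between -1.96 and -1.51.

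The paralogue Scd2 was not called. It had 80.8 and 86.5 in 4T1-S and 97.3 and 82.6 in 4T1-A (-0.10 ± 0.19, adjusted p = 0.765), and its arrays overlapped. The log2 value of Scd1 minus Scd2 within an array was -6.60 and -6.72 in 4T1-S and -5.31 and -4.89 in 4T1-A, so the pair separated the sub-lines whatever the scaling (difference -1.56, 2-sided exact permutation p = 0.333, the smallest that 2 arrays against 2 allow). The 2 genes are similar in sequence, and cross-hybridisation between their probes was not tested.

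At the start of the branch, Acly, which cleaves citrate to cytosolic acetyl-CoA, had 0.833 and 1.33 in 4T1-S and 2.27 and 1.76 in 4T1-A (-0.93 ± 0.26, adjusted p = 0.0742). Its sub-lines did not overlap, and its difference was -1.11 without 4T1-A replicate 2 and -0.74 without 4T1-A replicate 1. The range was wider for 4T1-S, with -0.59 without replicate 1 and -1.26 without replicate 2. Acly passed with scaling to the array median (adjusted p = 0.0494). Acaca, acetyl-CoA carboxylase, had 1.91 and 1.61 in 4T1-S and 2.10 and 2.02 in 4T1-A (-0.23 ± 0.19, adjusted p = 0.460). Its 3 dimmer probes gave differences between -0.39 and 0.21, so its sign depended on the probe.

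Fasn, the synthase that builds palmitate, had 2 probes that differed by unequal amounts. The brighter had 151 and 122 in 4T1-S and 161 and 149 in 4T1-A (-0.19 ± 0.20, adjusted p = 0.577), with overlap. The dimmer had 1.87 and 1.91 in 4T1-S and 3.51 and 3.76 in 4T1-A. This probe was called lower over all probes tested (-0.94 ± 0.19, adjusted p = 0.0362) with the sub-lines apart, but lost the call without any 1 of the 4 arrays (adjusted p between 0.0512 and 0.154). The value of the dimmer minus the brighter probe was -6.34 and -6.00 in 4T1-S and -5.52 and -5.31 in 4T1-A. Which part of the transcript each probe reads was not tested.

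Elovl6, which lengthens palmitate to stearate, had 9.62 and 10.5 in 4T1-S and 16.4 and 16.0 in 4T1-A (-0.68 ± 0.18, adjusted p = 0.0643). It lay just outside the threshold, with the sub-lines apart and the replicates close, and passed with scaling to the array median (0.0289), with normexp background correction (0.0486) and with an intensity trend (0.0448). Fads2, the desaturase that starts polyunsaturated fatty acid synthesis, had 5.34 and 4.51 in 4T1-S and 7.64 and 7.12 in 4T1-A (-0.59 ± 0.19, adjusted p = 0.101). Fads1, the desaturase later in the same route, had 13.5 in each 4T1-S array and 10.5 and 11.0 in 4T1-A (0.32 ± 0.18, adjusted p = 0.281). Fads2 and Fads1 were set side by side after their opposite signs were seen, so the pair is a description. The log2 value of Fads2 minus Fads1 was -1.33 and -1.58 in 4T1-S and -0.47 and -0.63 in 4T1-A.

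**Figure D3:**
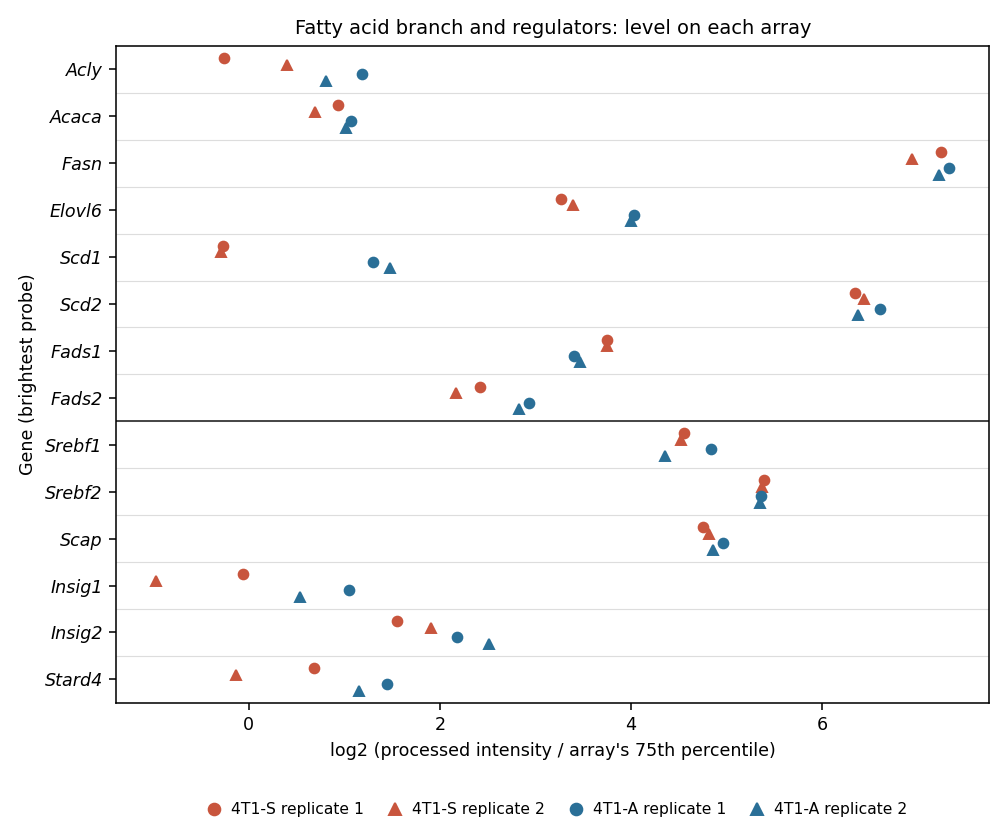
Relative intensity of the fatty acid branch enzymes (above the line) and of the regulators and the sterol carrier Stard4 (below it) on each array, as log2 of the processed intensity over the array's 75th percentile. Circles are replicate 1 and triangles replicate 2 of 4T1-S (red) and 4T1-A (blue); Scd1 lies 1.67 lower in 4T1-S, while the points of Scd2, Srebf1 and Srebf2 lie close together.

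Of the 6 regulators and carriers, 0 passed the test, and 3 were lower and 0 higher at an unadjusted p under 0.05 (8.2% and 20.5% of all genes). On the brightest probes of the transcription factors themselves, the differences were smaller than their errors. Srebf2 had 42.0 and 41.4 in 4T1-S and 40.9 and 40.6 in 4T1-A, a difference of 0.04 with a 95% interval from -0.38 to 0.45 (adjusted p = 0.920). Another Srebf2 probe had 5.68 and 5.66 in 4T1-S and 4.02 and 4.66 in 4T1-A, without overlap (0.39 ± 0.19, adjusted p over probes = 0.253). A further tested probe differed by 0.06 ± 0.20. The tested Srebf2 probes shared their sign here, and none passed the test. Srebf1 had 23.4 and 23.0 in 4T1-S and 28.4 and 20.4 in 4T1-A (-0.05 ± 0.22, 95% interval -0.56 to 0.45, adjusted p = 0.894). Scap, the escort protein, had 26.9 and 28.1 in 4T1-S and 31.2 and 29.0 in 4T1-A (-0.13 ± 0.18, adjusted p = 0.674). The sign of Srebf2 on its brightest probe turned with scaling to the array median (-0.26) and that of Srebf1 turned without 4T1-A replicate 1 (0.18). These arrays measured transcript, and processing of the SREBP proteins was not measured.

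The retention factors and the sterol carrier had lower values. Insig1, itself known as an SREBP target, had 0.963 and 0.511 in 4T1-S and 2.07 and 1.45 in 4T1-A. Both 4T1-S arrays lay below both 4T1-A arrays, and the difference, -1.30 ± 0.32 (95% interval -2.05 to -0.56), just missed the threshold at an adjusted p of 0.0531. Its other probe differed by -1.15 ± 0.27. Insig1 passed with scaling to the array median (0.0238) and with the mean of its probes (0.0480).

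Insig2, the second retention factor, had 2.92 and 3.74 in 4T1-S and 4.53 and 5.70 in 4T1-A (-0.62 ± 0.22, adjusted p = 0.115). Its dimmer probes differed by -0.33 ± 0.24 and 0.19 ± 0.19. Insig1 minus Insig2 was -1.60 and -2.87 in 4T1-S and -1.13 and -1.97 in 4T1-A, which overlapped, so the unequal difference of the pair was within the spread of the arrays (-0.68, exact permutation p = 0.667). Stard4, which carries sterol between membranes, had 1.60 and 0.910 in 4T1-S and 2.72 and 2.22 in 4T1-A (-1.02 ± 0.28, adjusted p = 0.0703). It was called lower with scaling to the array median (0.0307), and its dimmer probes differed by only -0.09 ± 0.21 and -0.22 ± 0.25.

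Across the 62 probes of the 32 members, 58 were tested, and 3 were called lower and 0 higher, for Idi1, Scd1 and Fasn. Over all probes tested, 2.35% were called lower and 2.17% higher. At an unadjusted p under 0.05, 21 member probes were lower and 0 were higher, where 7.92% of all probes tested were lower and 17.5% higher. Probes of the same gene share a transcript and are not replicates, and 19 members had several.

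The sterol and fatty acid branches were next compared with each other within each array, since a constant factor per array then cancels. The mean log2 level of 17 sterol enzymes, without Fdps, was 2.67 ± 0.29 in 4T1-S and 3.23 ± 0.25 in 4T1-A (SD, n = 2 arrays each). That of the 8 fatty acid enzymes was 2.93 ± 0.01 in 4T1-S and 3.44 ± 0.06 in 4T1-A. The differences were -0.56 and -0.51, close to each other. The fatty acid value includes Scd1, at -1.67, which weighs on a mean of 8 enzymes. The median differences of the branches, over all their enzymes, were -0.48 and -0.41. The sterol mean minus the fatty acid mean was -0.05 and -0.47 in 4T1-S and -0.08 and -0.34 in 4T1-A. The sub-lines thus differed by -0.05, well within the spread of the arrays. That sign turned without 4T1-S replicate 2 (0.16), without 4T1-A replicate 1 (0.08) and with the mean of each gene's probes (0.07).

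The replicates of a sub-line were also compared with each other, gene by gene. Replicate 2 was below replicate 1 for 15 of 17 sterol enzymes in 4T1-S and for 15 of 17 in 4T1-A, and in both sub-lines for 14 (82.4%). The median step was -0.35 in each sub-line. For the fatty acid branch the counts were 4 and 6 of 8, with 3 in both. Over all genes tested, replicate 2 was below replicate 1 in 50.6% in 4T1-S and 49.7% in 4T1-A, and in both in 31.8%. The sterol enzymes thus stepped together between replicates, by an amount to be set beside the sub-line difference of -0.56, and the step was not tested. The labels do not say what replicate 1 or replicate 2 have in common across the sub-lines.

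**Figure D4:**
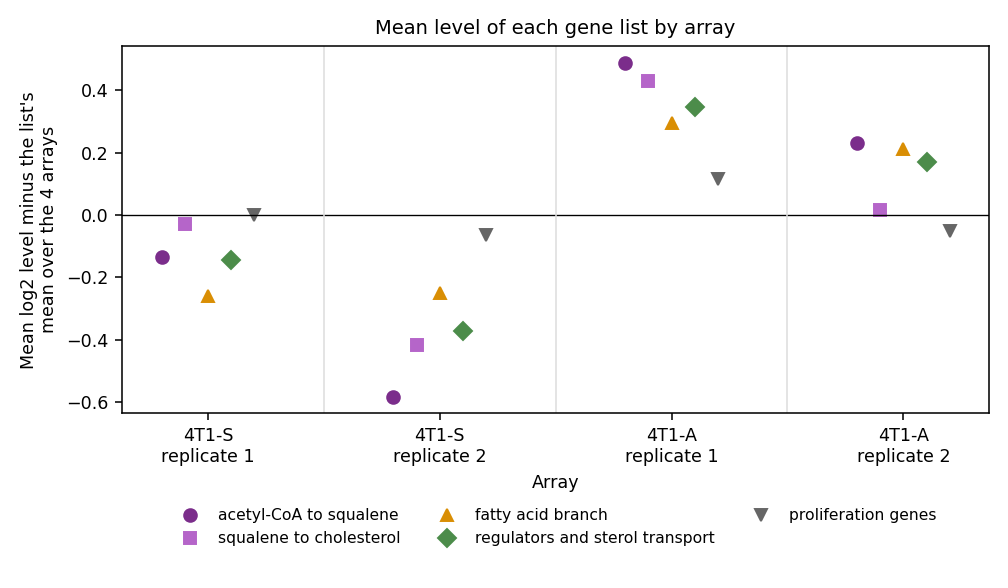
Mean log2 level of each gene list on each array, minus the mean of that list over the 4 arrays. In 4T1-S the enzymes from acetyl-CoA to squalene lie at -0.14 and -0.58 and the fatty acid branch at -0.26 and -0.25, and in 4T1-A they lie at 0.49 and 0.23 and at 0.30 and 0.21; the proliferation genes lie between -0.06 and 0.11.

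Neighbouring pathways were described from lists drawn up by function, also with earlier results of these data known. Of 14 tested genes for the use of isoprenoids in protein prenylation, dolichol, ubiquinone and transfer RNA, 0 passed (median difference -0.06). The brightest, the prenyl protein protease Rce1, had 32.8 and 33.7 in 4T1-S and 29.7 and 27.5 in 4T1-A (0.22 ± 0.18, adjusted p = 0.466). Of 14 genes that move or cleave SREBPs, 0 passed either and 0 did so at an unadjusted p under 0.05 (median 0.05). The brightest of them was Sar1a, a GTPase of the coat that carries cargo from the endoplasmic reticulum, with 24.2 and 25.1 in 4T1-S and 27.6 and 23.7 in 4T1-A.

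Among 16 tested genes of cholesterol transport and of the liver X receptors, which sense oxysterols, 1 rose and 1 fell (median 0.09). Nr1h3, which encodes such a receptor, had 0.383 and 0.434 in 4T1-S and 0.138 and 0.150 in 4T1-A. It rose 2.84-fold (1.50 ± 0.19, adjusted p = 0.00357), and missed the threshold without 4T1-S replicate 2 (0.0562). Cyp7b1, an oxysterol hydroxylase, was not well above background in 4T1-S (measured 0.0119 and 0.0111) and had 0.125 and 0.100 in 4T1-A. In 4T1-S it was at least 1.95-fold lower, the bound being set by the dimmest signal well above background, with an adjusted p of 8.37e-05 that became 0.0927 with normexp background correction.

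A list of further genes of fatty acid supply, synthesis, lengthening, activation and storage had 22 tested genes, of which 1 fell and 1 rose (median 0.04). Acsl4, which activates polyunsaturated fatty acids with coenzyme A, had 15.9 and 11.6 in 4T1-S and 29.3 and 26.2 in 4T1-A, and fell 2.04-fold (-1.03 ± 0.22, adjusted p = 0.0347). Dgat2, which adds the last acyl chain of triglycerides, had 8.35 and 8.75 in 4T1-S and 4.66 and 4.60 in 4T1-A, and rose 1.85-fold (0.88 ± 0.18, adjusted p = 0.0303). Neither overlapped between the sub-lines. Both calls were lost without 4T1-S replicate 1 (0.0683 and 0.130), 4T1-S replicate 2 (0.175 and 0.156) or 4T1-A replicate 1 (0.0533 and 0.0762), and with no filter on background (0.116 and 0.0927). Acsl4 also lost it with normexp background correction (0.0511), and Dgat2 with scaling to the array median (0.59, adjusted p = 0.109).

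Of 17 tested genes of fatty acid oxidation 1 fell (median 0.10). Cpt1c, a carnitine palmitoyltransferase best known from brain, was not well above background in 4T1-S (measured 0.0126 and 0.0118). Its values in 4T1-A were 0.170 and 0.175, which bounds the fall to at least 3.01-fold. The limma adjusted p of 3.22e-05 rests on the 4T1-S values near background. With normexp background correction the log2 difference shrank from -3.82 to -1.04, and Cpt1c was still called (adjusted p = 0.0163). Of 14 proliferation genes 0 passed, with 2 lower and 0 higher at an unadjusted p under 0.05 and a median of -0.01. Pcna, the replication clamp and the brightest of them, had 112 and 116 in 4T1-S and 101 and 97.5 in 4T1-A (0.20 ± 0.18, adjusted p = 0.497).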

How the data were processed

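RNA of 2 sub-lines was measured on 4 one-colour Agilent arrays. The authors extracted spot intensity values with Agilent Feature Extraction 9.1, per the submitters' processing notes. The processed intensity is background-subtracted and not scaled between arrays, per the file headers. The deposited series table gives a ratio, found from the values to be the processed intensity over the array's 75th percentile. It matched on 3 arrays, and on 4T1-A replicate 1 80.8% of values lay within 0.001. No genome build was given in the sources used here.

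For the results, each processed intensity was divided by its array's 75th percentile and put on a log2 scale. Flagged spots were left out and spots of a probe averaged. Of 41174 probes, 22951 were named by RefSeq accession, 9768 by symbol (GRCm38.p6 table) and 8455 by the file's name. The brightest probe on average stood for its gene, and a gene was tested if both arrays of either sub-line had this probe well above background. All 32 members were tested, and 31 of them, all but Fdps with its flagged spot, passed that limit on all 4 arrays. Differences, 4T1-S minus 4T1-A, came from limma 3.58.1 (eBayes after lmFit, 2-sided) in R 4.3.3, with Benjamini-Hochberg adjustment over all genes or all probes and a threshold of 0.05. A bound, written as at least, divides the bright mean by the dimmest signals well above background. The number of arrays limits the precision.

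All 32 members are named, and of each other pathway list every called gene, or its brightest tested gene where none was called. Promoters follow a similar rule, with up to 3 called sterol enzymes, the 2 fatty acid enzymes with the largest differences (Scd1 is not shown) and Insig1. Members and lists were chosen with earlier results of these data known. Alternatives covered normexp background correction, scaling to the median, quantile, cyclic loess, centring, both filters, the mean of probes, an intensity trend, the series table, flagged spots, each array left out and a replicate block.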

Additional observations from a re-analysis of the deposited data

How the results depend on the processing

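Scaling to the array median called 4 sterol enzymes, 4 fatty acid enzymes, 2 regulators, 14 member probes and 8 genes of the neighbouring pathways, against 2, 1, 0, 3 and 5 as reported. With that scaling 5.48% of all genes were called lower, against 3.01% as reported. Its share over all probes is not given here. Sterol enzymes called numbered 1 with quantile normalization, with no filter on background and with the mean of probes. Fatty acid enzymes called numbered 2 with normexp and with the intensity trend, and regulators 1 with the mean of probes. With no filter 1 member probe was called. Neighbouring genes called numbered 3 with normexp, with no filter and with the filter on all 4 arrays, and 8 with the mean of probes. The median difference was -0.77 (sterol) and -0.70 (fatty acid) with scaling to the median, and the fatty acid median was -0.45 with quantile normalization and -0.58 with the mean of probes. The sterol minus fatty acid difference turned to 0.067 with the mean of probes. Leaving out each array gave 0 to 6 sterol enzymes, 1 to 2 fatty acid enzymes, 0 to 2 regulators, 1 to 13 member probes and 2 to 11 neighbouring genes called. It gave medians of -0.72 to -0.27 (sterol) and -0.47 to -0.31 (fatty acid), and branch differences of -0.26 to 0.16, with 0.08 without 4T1-A replicate 1. These fits assume that the lone array varies like the other sub-line. Over all genes the count called was 1126 as reported, 2401 without 4T1-A replicate 2, 390 without 4T1-S replicate 1, 304 without 4T1-S replicate 2, 508 with normexp, 730 with quantile normalization and 271 with no filter.

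Single members turned sign as follows, none of them called. Fdps became 0.088 with the mean of probes, Tm7sf2 -0.018 and Ebp -0.023 with scaling to the median, while leaving out each array gave -0.011 to 0.55 for Ebp, -0.22 to 0.017 for Scd2 and -0.29 to 0.18 for Srebf1. Srebf2 became -0.0032 with normexp, -0.26 with scaling to the median, -0.032 with quantile normalization and -0.014 with cyclic loess. Idi1 was called in 14 and Hmgcs1 in 10 of 16 alternatives.

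The replicate block called 8 sterol enzymes, 4 fatty acid enzymes, 3 regulators, 23 member probes, 13 neighbouring genes and 3683 genes in all. Same-numbered arrays deviated together (r = 0.42 across 16155 genes, which are not independent), but the labels give only the numbers and there are 2 pairs, so the block is not the reported fit. Keeping flagged spots was added after seeing the data and changed no member's call. Signal near background limits Cyp7b1 and Cpt1c to bounds, and the cause of the changes above was not tested.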
